A study of Mus musculus with 9 samples.

Results

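CXC chemokine ligands were followed as the 6 member genes Cxcl1, Cxcl2, Cxcl3, Cxcl9, Cxcl10 and Cxcl16, chosen by gene symbol and all present among the 12204 genes of the deposited table. Chemokines are small secreted proteins that steer leukocytes along concentration gradients by engaging G protein-coupled receptors. CXCL1, CXCL2 and CXCL3 act on CXCR2 and draw neutrophils, and their genes are classical targets of NF-kB downstream of Toll-like receptors. CXCL9 and CXCL10 act on CXCR3 and draw activated T cells and natural killer cells, and their genes answer to interferons as well as to NF-kB. CXCL16 acts on CXCR6 and is made as a membrane-anchored protein that also serves as a scavenger receptor.

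The cells were bone marrow-derived macrophages of C57/Bl6J mice, grown from marrow for 6 days with 20% L929-conditioned supernatant, which supplies macrophage growth factor. Of the 9 libraries, 3 came from cells given the ATP-citrate lyase inhibitor BMS303141 (50 µM) for 1 h before 10 ng/ml lipopolysaccharide (LPS) for 4 h. A further 3 had that LPS treatment alone and 3 were untreated. LPS, from the outer membrane of Gram-negative bacteria, engages Toll-like receptor 4, and ATP-citrate lyase makes cytosolic acetyl-CoA. The question was how blocking this enzyme bears on the transcripts that LPS induces. No group had the inhibitor without LPS, no vehicle is named in the labels, and whether replicates were separate mice or cultures is not given, so each p-value weighs a difference against library-to-library spread that may be purely technical.

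Levels are log2 CPM, quantile-normalised across libraries, of reads from messenger RNA 3′ ends, so a transcript's length does not by itself set its read number. Different genes can be compared only roughly on this scale, because how fully each 3′ end was captured and counted was not measured. All 8 macrophage markers were measured in every library, with summed levels of 4750 to 4830 CPM with inhibitor and LPS, 3990 to 4870 CPM with LPS and 8010 to 8680 CPM untreated. These sums join opposite moves. With LPS against untreated, 6 of the 8 were lower and 1, Cd14, higher at an adjusted p under 0.05 (limma). Over all tested genes 25.4% were lower and 21.5% higher. Approximate depth was 3.56 to 3.74 M reads with inhibitor and LPS, 1.83 to 3.19 M with LPS and 3.22 to 5.05 M untreated. LPS replicate 1 was the shallowest library and stood apart from the other treated libraries on the second principal component (-63.1, against -5.48 to 26.0 in those). These are bulk samples, in which more RNA per cell and more cells of a type cannot be told apart.

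LPS raised all 6 members. The fitted rise was very large for 5 of them, while Cxcl16 rose little from an already high level. For Cxcl3 and Cxcl9 the size is uncertain, as their untreated values lay at or next to the lowest. With limma and an adjusted p under 0.05, 6 of 6 members were higher, where 21.5% of the 12196 tested genes were higher and 25.4% lower. The groups did not overlap for any of the 6, as for 23.7% of tested genes. The members' median log2 difference was 7.69, against -0.0572 over all tested genes.

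Among the neutrophil-attracting ligands, Cxcl2 reached the highest level. It stood at 10.64, 11.29 and 11.14 log2 CPM with LPS and at 2.58, 2.84 and 2.95 log2 CPM untreated. That is a 301-fold rise (log2 difference 8.23, SE 0.21; adjusted p = 4.91e-12, limma), and it made Cxcl2 the gene of rank 21 to 34 from the top in the LPS libraries. Cxcl1 stood at 7.43, 8.71 and 8.52 log2 CPM with LPS and at 0.45, 0.45 and -0.87 log2 CPM untreated. LPS replicate 1 was lowest in its group and still far above every untreated library. The log2 difference of Cxcl1 was 8.22 (SE 0.43; adjusted p = 4.09e-09, limma). Cxcl3 stood at 6.02, 6.83 and 6.41 log2 CPM with LPS and at -1.97, -1.58 and -0.87 log2 CPM untreated, a log2 difference of 7.90 (SE 0.34; adjusted p = 6.55e-10, limma). In each untreated library Cxcl3 lay 1 value step above the library's lowest value, so the size of its rise is imprecise.

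The interferon-induced ligands differed from each other in level. Cxcl10 stood at 7.87, 8.66 and 8.21 log2 CPM with LPS and at 1.48, 0.45 and 0.34 log2 CPM untreated, a log2 difference of 7.49 (SE 0.31; adjusted p = 3.36e-10, limma). Its LPS level was as high as that of Cxcl1, within the spread of the replicates. Cxcl9 stood at 2.38, 3.58 and 2.55 log2 CPM with LPS and at -2.85, -1.58 and -2.33 log2 CPM untreated. It was called higher (log2 difference 5.09, SE 0.54; adjusted p = 4.78e-06, limma). Untreated replicates 1 and 3 were at the lowest value of their library for Cxcl9 and replicate 2 was 1 step above it, so this fitted difference depends on the lowest values and does not measure the size of the rise. Cxcl9 minus Cxcl10 was -5.49, -5.09 and -5.66 log2 units in the LPS libraries, so Cxcl9 was a minor transcript beside its neighbour gene.

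Cxcl16 was already abundant in untreated macrophages. It stood at 7.61, 7.54 and 7.55 log2 CPM with LPS and at 7.06, 7.36 and 7.09 log2 CPM untreated. The groups were close but did not overlap, with LPS at 132% of the untreated level (95% interval 112% to 156%; log2 difference 0.40, SE 0.11; adjusted p = 0.00879, limma). In untreated cells Cxcl16 was the highest member by far, the next being Cxcl2.

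**Figure D1:**
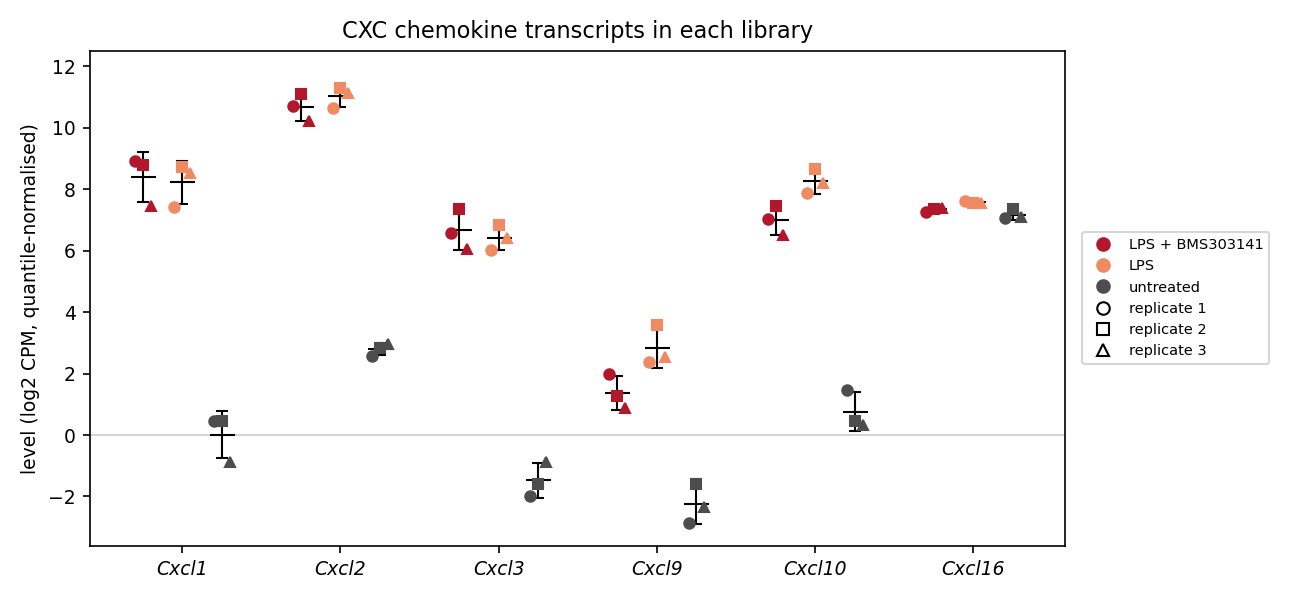
Levels of the 6 CXC ligand transcripts (x axis) in log2 CPM (y axis) in each of the 9 libraries, coloured by group with replicates as symbols, and the mean and SD of the 3 libraries in black. Cxcl2 lies at 10.64 to 11.29 with LPS and 2.58 to 2.95 untreated, and Cxcl16 stays between 7.06 and 7.61 in all libraries.

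The order of levels differed between groups. With inhibitor and LPS the means ran from Cxcl2 (10.67 log2 CPM) through Cxcl1 (8.39), Cxcl16 (7.34), Cxcl10 (6.99) and Cxcl3 (6.66) to Cxcl9 (1.37). With LPS alone they ran from Cxcl2 (11.02 log2 CPM) through Cxcl10 (8.25), Cxcl1 (8.22), Cxcl16 (7.57) and Cxcl3 (6.42) to Cxcl9 (2.83). Untreated cells had Cxcl16 (7.17 log2 CPM) first, then Cxcl2 (2.79), Cxcl10 (0.76), Cxcl1 (0.01), Cxcl3 (-1.48) and Cxcl9 (-2.25). Neighbours whose libraries overlapped were Cxcl16 and Cxcl10 and Cxcl10 and Cxcl3 with the inhibitor, Cxcl10 and Cxcl1 and Cxcl1 and Cxcl16 with LPS, and Cxcl10 and Cxcl1 and Cxcl3 and Cxcl9 untreated, where Cxcl1 and Cxcl3 met at -0.87. Cxcl10 was thus above Cxcl16 in every LPS library, whereas with the inhibitor their libraries overlapped.

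The 5 strongly induced members lie on chromosome 5 in separate neighbourhoods (GRCm38). Cxcl3 (ENSMUSG00000029379, chromosome 5, 90786103 to 90789600), Cxcl1 (ENSMUSG00000029380, 90891241 to 90893115) and Cxcl2 (ENSMUSG00000058427, 90903871 to 90905938) follow each other on the plus strand. Cxcl9 (ENSMUSG00000029417, chromosome 5, 92321347 to 92328079) and Cxcl10 (ENSMUSG00000034855, 92346638 to 92348889) lie next to one another on the minus strand. Cxcl16 (ENSMUSG00000018920, chromosome 11, 70453983 to 70459984, minus strand) is elsewhere. Cxcl10 lies within the span of Art3 on the opposite strand, and the 5′ end of Cxcl16 overlaps Zmynd15 on the opposite strand. Art3 was not analysed here, and no source used here states whether counting kept strands apart.

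The 250 bases before the RefSeq transcription start are shown for the 5 members with an entry in the RefSeq promoter table (GRCm38.p6), because NF-kB and interferon factors are known to act on such genes from sites near the start. RefSeq starts can differ from the gene starts above, so distances depend on the start used. The Cxcl2 window ends at 90903898, past the gene start at 90903871. Sequences run 5′ to 3′ on the gene's strand. Capitals mark matches, on either strand, to the degenerate kB form GGGNNNNNCC and to the interferon-stimulated response element in the form GAAANNGAAA.
Cxcl1, chr5:90890995-90891244, plus strand: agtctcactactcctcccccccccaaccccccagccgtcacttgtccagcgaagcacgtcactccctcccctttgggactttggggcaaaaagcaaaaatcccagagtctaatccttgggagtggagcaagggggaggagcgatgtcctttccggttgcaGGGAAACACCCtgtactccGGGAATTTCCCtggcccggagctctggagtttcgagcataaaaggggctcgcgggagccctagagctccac
Cxcl2, chr5:90903649-90903898, plus strand: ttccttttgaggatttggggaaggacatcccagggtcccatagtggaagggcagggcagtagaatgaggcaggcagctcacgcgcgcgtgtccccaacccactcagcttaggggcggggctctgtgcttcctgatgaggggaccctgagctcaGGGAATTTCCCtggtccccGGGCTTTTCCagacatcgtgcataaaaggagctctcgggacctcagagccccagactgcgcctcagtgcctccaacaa
Cxcl3, chr5:90785851-90786100, plus strand: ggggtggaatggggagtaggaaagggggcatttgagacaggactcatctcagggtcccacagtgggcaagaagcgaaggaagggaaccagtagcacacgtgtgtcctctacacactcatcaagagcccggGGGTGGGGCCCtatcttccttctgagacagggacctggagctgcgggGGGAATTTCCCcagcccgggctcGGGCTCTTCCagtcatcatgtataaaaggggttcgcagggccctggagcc
Cxcl9, chr5:92328080-92328329, minus strand: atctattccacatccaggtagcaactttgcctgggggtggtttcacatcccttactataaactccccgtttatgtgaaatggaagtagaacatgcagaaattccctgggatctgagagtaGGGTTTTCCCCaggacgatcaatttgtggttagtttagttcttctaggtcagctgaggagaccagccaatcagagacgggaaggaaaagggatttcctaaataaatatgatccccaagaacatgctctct
Cxcl10, chr5:92348890-92349139, minus strand: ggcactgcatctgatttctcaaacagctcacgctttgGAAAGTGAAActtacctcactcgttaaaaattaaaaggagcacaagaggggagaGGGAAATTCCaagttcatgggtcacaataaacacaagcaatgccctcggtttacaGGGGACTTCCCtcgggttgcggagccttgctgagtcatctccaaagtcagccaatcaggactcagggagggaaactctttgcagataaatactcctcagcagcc

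The kB forms present in all 3 neutrophil-attracting genes were the decamers GGGAATTTCC, on the gene's strand, and GGGAAATTCC, on the other strand and shifted by 1 base. GGGAATTTCC begins at -71 from the RefSeq transcription start in Cxcl1, at -97 in Cxcl2 and at -73 in Cxcl3. Of 27025 promoters of the same length, 23 held it on either strand (0.0851%), these 3 among them, and 25 held GGGAAATTCC (0.0925%). Cxcl10 held GGGAAATTCC too, on its own strand at -159, and the degenerate form again as GGGACTTCCC at -103. Cxcl9 held neither decamer in this window and had the degenerate form as GGGTTTTCCC at -130. The degenerate form is common, occurring in 45.4% of promoters, and overlapping matches on both strands were merged in the capitals. Only Cxcl10 among the 5 held GAAANNGAAA, as GAAAGTGAAA at -213, a form found in 3.04% of promoters. None of the 5 held the STAT form TTCNNNGAA, found in 7.18% of promoters. A match describes letters in this window and is not evidence of binding in these cells.

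**Figure D2:**
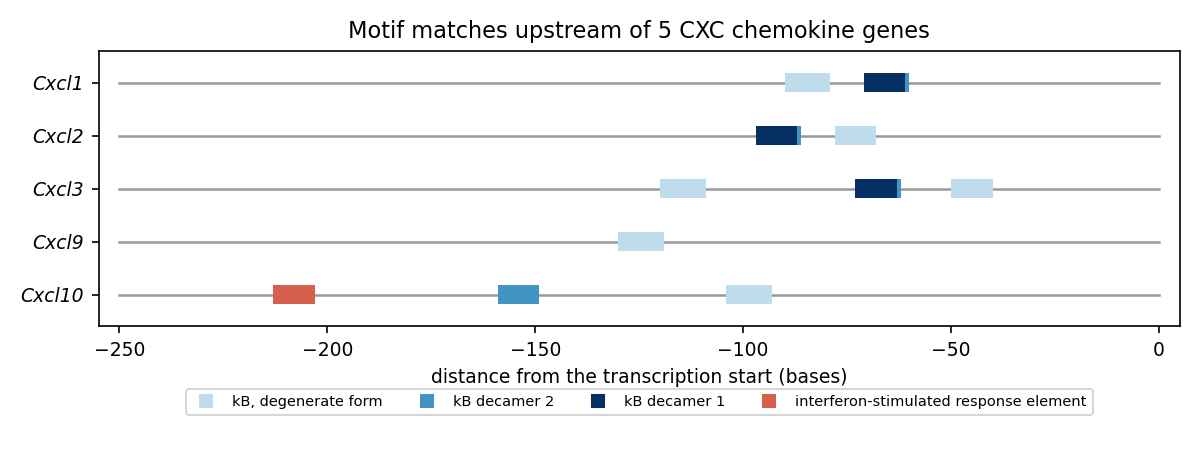
Matches on either strand to the degenerate kB form, to decamers 1 (GGGAATTTCC) and 2 (GGGAAATTCC) and to the interferon-stimulated response element (boxes) along the 250 bases upstream of 5 genes (y axis), against the distance from the RefSeq transcription start in bases (x axis). Decamer 1 lies at -71, -97 and -73 in Cxcl1, Cxcl2 and Cxcl3, with decamer 2 shifted by 1 base, and Cxcl10 has decamer 2 at -159 and the response element at -213.

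The 3′ untranslated regions of Cxcl1, Cxcl2 and Cxcl3 were richer in AU-rich elements than those of the other members. Such elements are bound by decay proteins of the ZFP36 family, which shorten the life of cytokine messages. The pentamer ATTTA occurred at 11.8 per kb in Cxcl1, 7.36 per kb in Cxcl2 and 7.75 per kb in Cxcl3, and at 1.22 per kb in Cxcl9, 3.01 per kb in Cxcl10 and 1.41 per kb in Cxcl16. The median over 9593 tested protein-coding genes was 1.41 per kb. The nonamer TTATTTATT was present in Cxcl1, Cxcl2 and Cxcl3 (2, 4 and 1 matches) and in none of the other members, against 8.43% of 9881 tested protein-coding genes. Although Cxcl2 and Cxcl3 share 82 stretches of 30 identical bases over their whole transcripts, no pair of members shared such a stretch in the last 500 bases, where the reads of this method arise.

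With the inhibitor the interferon-induced ligands had lower values than with LPS alone, and the neutrophil-attracting ligands had no common direction. No member passed the test (0 of 6 with limma at an adjusted p under 0.05, where 0.959% of tested genes were called higher and 1.16% lower). Those were 117 genes higher and 141 lower, and with ribosomal protein centring 55 and 118. At an unadjusted p under 0.05 there were 2, Cxcl9 and Cxcl10. The groups did not overlap, with the inhibitor lower, for 3 of 6 members (Cxcl9, Cxcl10 and Cxcl16), as for 11.2% of tested genes.

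Cxcl10 stood at 7.02, 7.45 and 6.51 log2 CPM with inhibitor and LPS, against 7.87, 8.66 and 8.21 log2 CPM with LPS alone. All inhibitor libraries lay below all LPS libraries. The log2 difference was -1.25 (SE 0.31, 95% interval -1.91 to -0.59, not adjusted for the number of genes), which places the inhibitor group at 41.9% of the LPS level (95% interval 26.5% to 66.2%). The adjusted p of 0.0537 (limma) was just outside the threshold. Over 19 alternative fits it ran from 0.00303 to 0.245, under 0.05 in 6 of them, with log2 differences from -1.48 to -1.01. Without LPS replicate 1, the library that stood apart, the difference was -1.44 (adjusted p = 0.0307, limma), and without untreated replicate 1 or 3 it was -1.25 (adjusted p = 0.0166 and 0.0382, limma). Only these 3 of the 9 fits without 1 library called Cxcl10. The 9 ran from -1.48 to -1.01, with adjusted p (limma) from 0.0166 to 0.245.

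Cxcl9 stood at 1.98, 1.26 and 0.88 log2 CPM with inhibitor and LPS, against 2.38, 3.58 and 2.55 log2 CPM with LPS alone. The difference of -1.46 (SE 0.54, 95% interval -2.63 to -0.29) did not pass (adjusted p = 0.223, limma). These values lay 6 to 14 value steps above the lowest value in the inhibitor libraries and 8 to 34 steps above it in the LPS libraries, so they rest on few reads. Cxcl11, the third CXCR3 ligand gene, had a difference of -0.83 (SE 0.48; adjusted p = 0.450, limma), with 1.77, 2.19 and 1.60 log2 CPM with inhibitor and LPS and 1.98, 3.12 and 2.95 log2 CPM with LPS alone.

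Cxcl2 stood at 10.71, 11.09 and 10.22 log2 CPM with inhibitor and LPS, against 10.64, 11.29 and 11.14 log2 CPM with LPS alone. The groups overlapped, and the difference was -0.35 (95% interval -0.79 to 0.09; adjusted p = 0.461, limma). Cxcl1 stood at 8.92, 8.78 and 7.46 log2 CPM with inhibitor and LPS and at 7.43, 8.71 and 8.52 log2 CPM with LPS alone. Each group held 1 low library, and the difference was 0.16 (95% interval -0.77 to 1.10; adjusted p = 0.896, limma). Cxcl3 stood at 6.58, 7.35 and 6.05 log2 CPM with inhibitor and LPS and at 6.02, 6.83 and 6.41 log2 CPM with LPS alone, with a difference of 0.24 (95% interval -0.51 to 0.98; adjusted p = 0.791, limma). As shares of the LPS level, the 95% intervals ran from 57.7% to 107% for Cxcl2, from 58.5% to 214% for Cxcl1 and from 70.3% to 197% for Cxcl3. Cxcl16 stood at 7.25, 7.36 and 7.40 log2 CPM with inhibitor and LPS and at 7.61, 7.54 and 7.55 log2 CPM with LPS alone. Its difference was -0.23 (SE 0.11, 95% interval -0.47 to 0.01; adjusted p = 0.349, limma).

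**Figure D3:**
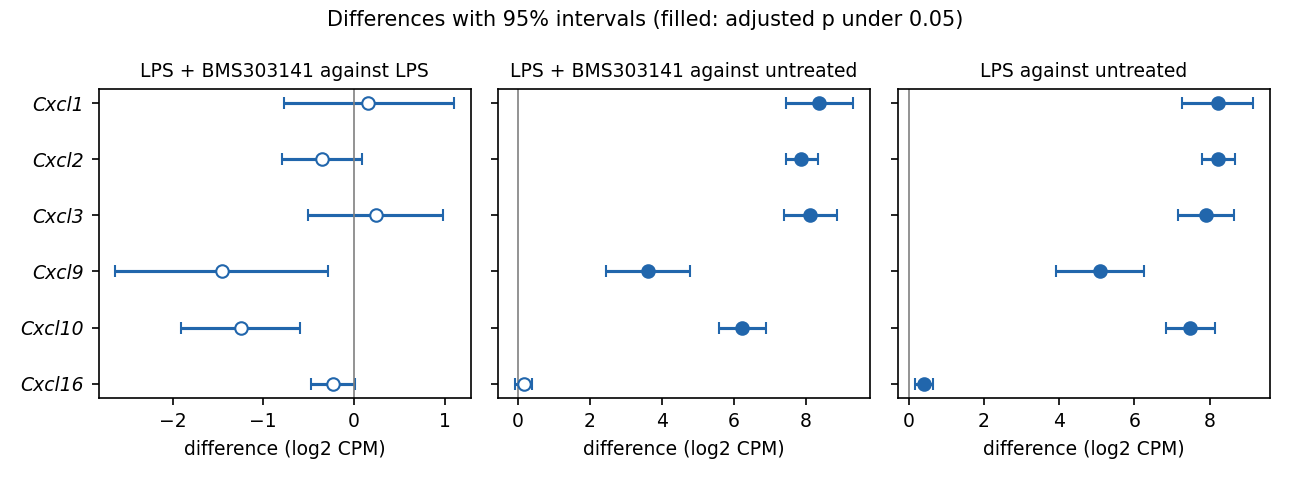
Log2 differences (x axes) of the 6 CXC ligands (y axis) in the 3 comparisons, with 95% intervals from limma that are not adjusted for the number of genes; filled points passed an adjusted p under 0.05. Cxcl9 (-1.46) and Cxcl10 (-1.25) lie left of 0 for the inhibitor with LPS against LPS, and none of the 6 is filled there.

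The strongly induced members had their lowest value in the same library in each treated group, a pattern that was not counted over all genes. Within the inhibitor group, replicate 3 was the lowest library for all 5 strongly induced members, from -0.45 for Cxcl2 to -0.93 for Cxcl1 relative to the group mean on the log2 scale. Within the LPS group, replicate 1 was the lowest for the same 5, from -0.38 for Cxcl2 and Cxcl10 to -0.79 for Cxcl1. Cxcl16 did not follow, as it was highest in both of these libraries. Genes outside the family went either way in LPS replicate 1. Nfkbia was lowest there (11.29 log2 CPM, against 12.14 and 12.14) and Tnfaip3 highest (8.25 log2 CPM, against 8.02 and 8.02). Untreated libraries had no such library, with replicate 1 lowest for 3 of the 5 and replicate 3 for the other 2. Without both libraries the differences were -1.20 for Cxcl10 (adjusted p = 0.143, limma), -1.44 for Cxcl9, -0.31 for Cxcl2, 0.23 for Cxcl1, 0.34 for Cxcl3 and -0.24 for Cxcl16.

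Differences between members within a library set aside only the part of this shift that both members share equally. In inhibitor replicate 3 the deviation from the group mean was -0.93 for Cxcl1 and -0.48 for Cxcl10, so a part remains in Cxcl10 minus Cxcl1. Cxcl10 minus Cxcl2 was -3.69, -3.64 and -3.71 log2 units with inhibitor and LPS, against -2.77, -2.62 and -2.93 with LPS alone. The groups stood apart, with little spread within either. Cxcl10 minus Cxcl3 was 0.45, 0.10 and 0.46 with inhibitor and LPS, against 1.85, 1.83 and 1.80 with LPS alone. Cxcl10 minus Cxcl1 was -1.90, -1.33 and -0.95 with inhibitor and LPS, against 0.44, -0.05 and -0.32 with LPS alone. Cxcl10 was therefore lower relative to each neutrophil-attracting ligand in every inhibitor library than in any LPS library. Cxcl9 minus Cxcl2 was -8.73, -9.83 and -9.35 with the inhibitor, against -8.27, -7.71 and -8.59 with LPS alone, again without overlap, while Cxcl9 minus Cxcl10 overlapped between the groups. These differences were chosen with the members' values known and are given without a test or a share over other gene pairs. Cxcl9 and Cxcl10 by themselves already did not overlap between these groups.

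**Figure D4:**
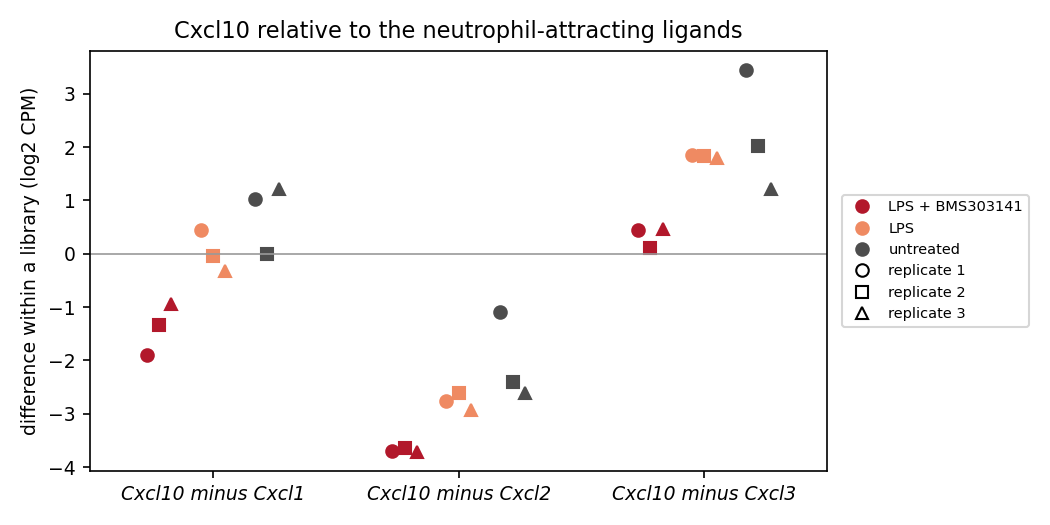
Cxcl10 level minus the level of Cxcl1, Cxcl2 or Cxcl3 (x axis) in the same library, in log2 CPM (y axis), coloured by group with replicates as symbols. For Cxcl2 the inhibitor libraries lie at -3.71 to -3.64 and the LPS libraries at -2.93 to -2.62.

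Some markers of other cells moved with the groups. The 4 measured neutrophil markers of 10 summed to 195 to 285 CPM with inhibitor and LPS, 45.5 to 74.8 CPM with LPS and 12.7 to 36.0 CPM untreated. Most of this sum was S100a8, at 7.80, 7.42 and 8.04 log2 CPM with inhibitor and LPS, 5.90, 4.99 and 5.50 log2 CPM with LPS and 2.88, 2.74 and 4.27 log2 CPM untreated. S100a8 rose with the inhibitor by 2.29 on the log2 scale (SE 0.34; adjusted p = 0.00377, limma) and Mmp8 by 1.63 (SE 0.28; adjusted p = 0.00996, limma), where the call of Mmp8 ended if inhibitor replicate 1 or 3 was left out (adjusted p at most 0.0694, limma). Without a mean trend in the variance the call of S100a8 ended (adjusted p = 0.0564, limma). Csf3r, the receptor for granulocyte growth factor, rose with LPS by 2.70 on the log2 scale (SE 0.32) and was at 0.29 with the inhibitor (SE 0.32; adjusted p = 0.713, limma). S100a9 stood at 2.74, -0.06 and -0.05 log2 CPM with inhibitor and LPS, at 0.18, 1.09 and -0.11 log2 CPM with LPS and at -1.17, 0.25 and 3.37 log2 CPM untreated, with all groups overlapping. The neutrophil genes Ly6g, Mpo, Elane, Camp, Ngp and Retnlg were not analysed here. The 4 measured stromal markers of 10 summed to 6.19 to 13.5 CPM with inhibitor and LPS, 13.7 to 23.7 CPM with LPS and 6.09 to 14.0 CPM untreated. All 4 had lower means with the inhibitor than with LPS alone, and none was called. For 2 of them (Sparc and Pdgfrb) the groups did not overlap, as for 11.2% of tested genes. Values were low and uneven, with Col1a1 at -1.5, -0.06 and 1.6 log2 CPM and Col1a2 at -1.5, 1.08 and 1.6 log2 CPM with inhibitor and LPS. Pdgfrb, a receptor of mesenchymal cells, stood at 1.66, 1.56 and 0.88 log2 CPM with inhibitor and LPS, at 3.10, 3.07 and 1.96 log2 CPM with LPS and at the lowest value of each untreated library. It was called higher with LPS (adjusted p = 1.91e-06, limma), and its difference with the inhibitor was -1.34 (SE 0.52; adjusted p = 0.244, limma). None of the 10 lymphocyte markers, Ifng among them, was analysed here. The part of other cells in the chemokine values was not tested.

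Against untreated cells, 5 of 6 members were higher with inhibitor and LPS (limma), where 21.5% of tested genes were higher and 25.6% lower. The log2 differences were 8.38 for Cxcl1, 7.88 for Cxcl2, 8.13 for Cxcl3, 3.62 for Cxcl9 and 6.24 for Cxcl10, that of Cxcl9 again resting on untreated values at or next to the lowest. Cxcl16 did not pass, at 7.25, 7.36 and 7.40 log2 CPM with inhibitor and LPS and 7.06, 7.36 and 7.09 log2 CPM untreated (difference 0.17, 95% interval -0.07 to 0.41; adjusted p = 0.223, limma). This comparison shares its untreated libraries with that of LPS against untreated and its inhibitor libraries with that of inhibitor and LPS against LPS.

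Other CXC ligands and receptors were followed from a list. Of 9 further CXC ligand genes 3 were measured and 6 were not analysed here. Cxcl11 rose with LPS (log2 difference 4.37, SE 0.48), as did Pf4, the platelet factor CXCL4 (2.34, SE 0.25). Cxcl14, which is expressed constitutively in many tissues, fell by 2.30 on the log2 scale (SE 0.28). None of the 3 passed with the inhibitor (adjusted p = 0.450 to 0.859, limma). Of 8 receptor genes only Cxcr4, the receptor for CXCL12, was measured. It stood at 0.77, 1.48 and 0.64 log2 CPM with LPS and at 7.18, 6.87 and 5.57 log2 CPM untreated, a difference of -5.58 (SE 0.44; adjusted p = 2.62e-07, limma). With the inhibitor Cxcr4 was at 0.02 relative to LPS (adjusted p = 0.992, limma). Cxcr2, Cxcr3 and Cxcr6, the receptors of the 6 ligands, were not analysed here.

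NF-kB subunits, inhibitors and IkB kinase genes all rose with LPS, 15 of 15 (21.5% of all tested genes rose), with a median log2 difference of 2.66. Tnfaip3, the feedback inhibitor A20, rose by 5.56 (SE 0.21), Bcl3 by 3.32 (SE 0.14) and Nfkb1, which encodes p50, by 2.66 (SE 0.11). With the inhibitor 3 of 15 fell and none rose (1.16% and 0.959% of all tested genes), beside a list median of -0.13. Rel, the c-Rel subunit, stood at 7.60, 7.66 and 7.52 log2 CPM with inhibitor and LPS, against 8.46, 8.37 and 8.41 log2 CPM with LPS alone (difference -0.82, SE 0.11; adjusted p = 0.00173, limma). Nfkb1 fell by 0.54 (SE 0.11; adjusted p = 0.0186, limma) and Ikbkb, a kinase that targets IkB for degradation, by 0.47 (SE 0.11; adjusted p = 0.0372, limma). The calls of Nfkb1 and Ikbkb ended without any single inhibitor library (adjusted p up to 0.108 and 0.190, limma), and that of Ikbkb also without any single LPS library or untreated replicate 2 (up to 0.0942). Both calls also ended with ribosomal protein centring (adjusted p = 0.0837 for Nfkb1 and 0.108 for Ikbkb, limma) and without a mean trend (0.11 and 0.141), and that of Ikbkb with only the groups compared (0.051). Rela, the p65 subunit, was at -0.01 and Nfkbia, which encodes IkB alpha, at 0.27, neither of them called, both named after their values were seen.

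Interferon signalling genes rose with LPS in 15 of 19 measured cases and fell in 2, where 21.5% of all tested genes rose and 25.4% fell. Jak2, a kinase of cytokine receptors, rose by 4.20 (SE 0.10) and Usp18, an interferon-induced brake on the type I interferon receptor, by 3.82 (SE 0.19). Irf8, a myeloid transcription factor, fell by 2.05 (SE 0.11). With the inhibitor 3 of 19 fell and 1 rose (1.16% and 0.959% of all tested genes), with a list median of -0.12, against a median of -0.00427 over all tested genes. Ifnb1, the interferon beta gene, was not analysed here.

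Ticam2 encodes TRAM, the adaptor that couples Toll-like receptor 4 to TRIF and so to interferon beta. It stood at 2.95, 2.69 and 3.11 log2 CPM with inhibitor and LPS, at 4.07, 4.26 and 4.38 log2 CPM with LPS alone and at 2.72, 2.51 and 2.82 log2 CPM untreated. Inhibitor libraries were near the untreated ones and apart from those with LPS alone (difference from LPS -1.32, SE 0.21; adjusted p = 0.0068, limma). Usp18 stood at 4.84, 5.16 and 4.67 log2 CPM with inhibitor and LPS, against 6.02, 6.14 and 5.95 log2 CPM with LPS alone (difference -1.15, SE 0.19; adjusted p = 0.00843, limma). Stat2, a subunit of the factor that binds interferon-stimulated response elements, fell by 0.86 (SE 0.16; adjusted p = 0.0148, limma). Without inhibitor replicate 1 or 3 the calls of Usp18 and Stat2 ended (adjusted p at most 0.0713 and 0.0948, limma), and that of Stat2 also without LPS replicate 2 (0.0586) or without a mean trend (0.0739). Irf8 stood at 6.92, 6.89 and 7.20 log2 CPM with inhibitor and LPS, at 5.90, 5.93 and 5.89 log2 CPM with LPS alone and at 8.03, 7.91 and 7.93 log2 CPM untreated (difference from LPS 1.10, SE 0.11; adjusted p = 0.000482, limma).

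Irf1, a factor known to act on Cxcl9 and Cxcl10, was named after its values were seen. It stood at 6.66, 7.10 and 6.52 log2 CPM with inhibitor and LPS, against 7.22, 8.15 and 7.70 log2 CPM with LPS alone. The groups did not overlap, and the difference of -0.93 (SE 0.23) did not pass (adjusted p = 0.0545, limma). As for Cxcl10, replicate 3 was lowest in the inhibitor group and replicate 1 in the LPS group. Without LPS replicate 1 the difference of Irf1 was -1.17 (adjusted p = 0.00871, limma), and without untreated replicate 1 it was -0.93 (adjusted p = 0.0401, limma). These were the 2 of 9 fits without 1 library that called Irf1, and the 9 ran from -1.17 to -0.70 with adjusted p (limma) from 0.00871 to 0.24.

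**Figure D5:**
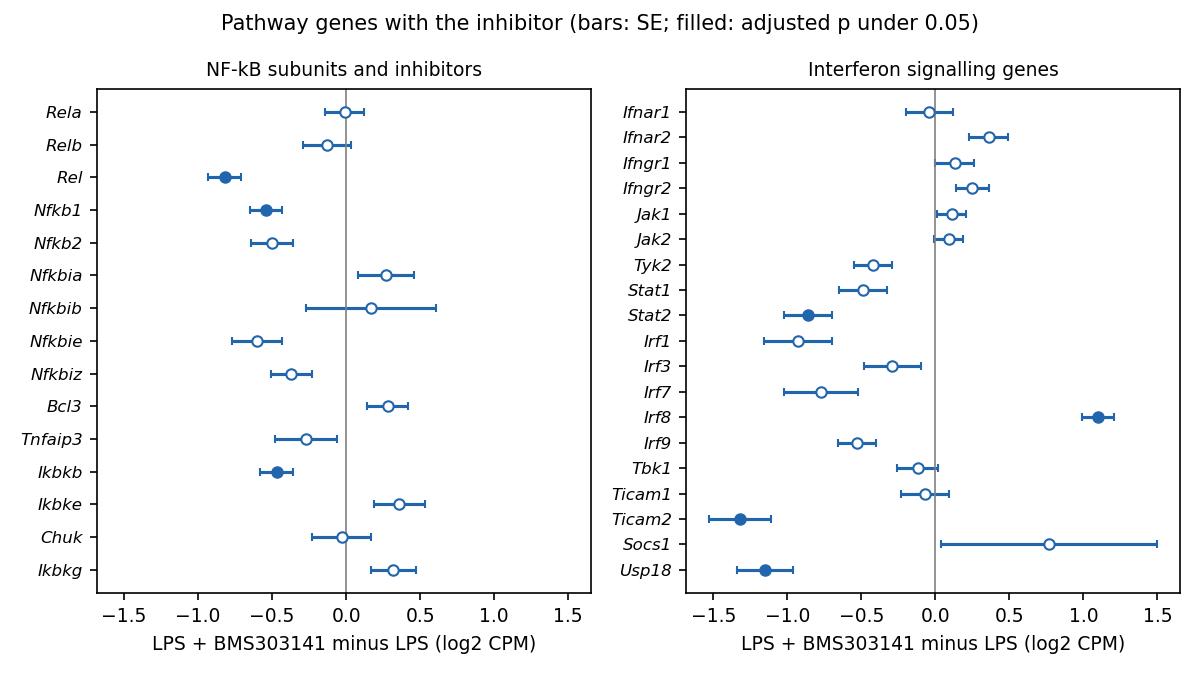
Log2 difference between inhibitor with LPS and LPS alone (x axes) for NF-kB subunits, inhibitors and IkB kinase genes (left) and for interferon signalling genes (right, y axes), with the SE as bars; filled points passed an adjusted p under 0.05 (limma). Rel, Nfkb1 and Ikbkb are filled on the left at -0.82, -0.54 and -0.47, and Stat2, Ticam2, Usp18 and Irf8 on the right at -0.86, -1.32, -1.15 and 1.10.

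Among 9 genes of chemokine message decay, 4 rose and 2 fell with LPS, where 21.5% of all tested genes rose and 25.4% fell. Zc3h12a, the endonuclease Regnase-1, rose by 3.14 (SE 0.18), whereas Zfp36l1 and Zfp36l2, which bind AU-rich elements, fell by 3.75 (SE 0.17) and 4.15 (SE 0.29). With the inhibitor only Zfp36l1 of the 9 was called, higher (0.959% of all tested genes). It stood at 6.29, 5.97 and 6.04 log2 CPM with inhibitor and LPS, at 3.65, 4.14 and 4.17 log2 CPM with LPS alone and at 8.01, 7.60 and 7.58 log2 CPM untreated. The inhibitor libraries lay between the other groups, at a difference from LPS of 2.11 (SE 0.17; adjusted p = 6.54e-05, limma), while Zfp36 was at 0.26 (SE 0.16; adjusted p = 0.481, limma) and Zfp36l2 at 0.30 (SE 0.29; adjusted p = 0.662, limma). Of the proteases that shed CXCL16, Adam10 fell by 1.25 with LPS (SE 0.13; adjusted p = 3.23e-06, limma) and Adam17 was at 0.40 (SE 0.19; adjusted p = 0.106, limma). With the inhibitor they were at 0.07 (adjusted p = 0.833, limma) and 0.02 (adjusted p = 0.974, limma).

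The genes with the most similar profiles were found over 9708 named protein-coding genes by Euclidean distance over the 9 libraries, after each gene's own mean was subtracted. Nearest to Cxcl2 were Socs3 (distance 1.06 log2 units, Pearson r 0.996), Edn1 (1.32, r 0.998) and Adora2a (1.34, r 0.996). Nearest to Cxcl3 were Socs3 (1.02, r 0.997), U90926 (1.24, r 0.995) and Rnd1 (1.67, r 0.990), and to Cxcl1 Rnd1 (1.12, r 0.996), Slc7a11 (1.53, r 0.992) and Edn1 (1.63, r 0.992). None of these 6 genes was called with the inhibitor, where 0.959% of all tested genes were called higher and 1.16% lower. The inhibitor libraries entered every distance, so a neighbour's difference with the inhibitor is no separate evidence about the member. Cxcl10 lay nearest to Cish (1.25, r 0.995), Il4i1 (1.35, r 0.996) and Src (1.56, r 0.988), none of them called with the inhibitor (adjusted p = 0.23, 0.275 and 0.475, limma). Cxcl9 lay nearest to Trim30c (r 0.974), Oasl1 (1.51, r 0.974) and Slc1a2 (1.54, r 0.984), of which Oasl1, an interferon-induced gene, was called lower with the inhibitor (log2 difference -1.05, SE 0.22; adjusted p = 0.0271, limma). That call of Oasl1 ended when inhibitor replicate 1 or 3 or LPS replicate 2 or 3 was left out (adjusted p = 0.13, 0.146, 0.0945 and 0.0578, limma), and without a mean trend (0.118). Nearest to Cxcl16 were Zhx1 (0.251, r 0.907), Fmr1 (0.258, r 0.908) and Pik3cg (0.277, r 0.870). Among the members, Cxcl2 and Cxcl3 were the closest pair (0.985, r 0.996) and Cxcl10 lay nearer to Cxcl2 (2.34, r 0.986) than to Cxcl9 (4.04, r 0.959). These distances take in the LPS rise, 7.49 for Cxcl10, 8.23 for Cxcl2 and 5.09 for Cxcl9, the last resting on the lowest untreated values. Between inhibitor with LPS and LPS alone the differences were -1.25, -0.35 and -1.46. All these values share the same 9 libraries and span the same step between treated and untreated cells.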

How the data were processed

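Messenger RNA 3′ ends of 9 mouse macrophage libraries were sequenced with an oligo(dT)-primed 3′ kit, per the labels' protocols. Tools listed in the submitters' processing notes, with no roles given, were edgeR, limma, MultiQC, featureCounts 1.5.1 and STAR 2.5.2b, and the genome was GRCm38 (mm10). Neither the annotation release nor the strand setting is stated. The authors deposited 1 score per gene and library on a log2 scale. These were taken as quantile-normalised log2 CPM because, raised from the log scale, each library's values sum to between 987472 and 987498. A change shared by most transcripts cannot be seen on that scale. Raw counts were not used, so no count model was run. Depth was estimated from the spacing of each library's lowest distinct values and is approximate.

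Genes with at least 0 log2 CPM in at least 3 libraries were tested (12196 of 12204) in 1 model of all 3 groups in limma 3.58.1 (R 4.3.3; mean trend, two-sided, Benjamini-Hochberg over the tested genes), called at an adjusted p under 0.05, after the steps were tested on simulated data. Alternatives were other filters, scalings and variance settings, a replicate block, only the groups compared, library weights and leaving out each library. SE is the moderated standard error. Symbols came from GENCODE M21 (12181 identifiers matched) and promoters from RefSeq. Named were the members, the 3 genes of smallest p of each list in LPS against untreated and inhibitor against LPS, and the 3 nearest profiles; any other gene makes up a count of 5 or fewer, is a marker, or is called in the text chosen after its values. Members and lists were chosen with earlier results of these data known.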

Additional observations from a re-analysis of the deposited data

How the results depend on the processing

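In LPS against untreated and in inhibitor with LPS against untreated, the 113 refitted member values of each comparison kept their direction and their side of the threshold. In inhibitor with LPS against LPS, 102 of 113 did. Cxcl10 was called lower, making 1 member called where none had been, with ribosomal protein centring (-1.33), only the groups compared (-1.25) and weights per library (-1.28). Fits without 1 library gave 0 to 1 members called lower, the call being Cxcl10 without untreated replicate 1 or 3 or LPS replicate 1 (adjusted p = 0.0166, 0.0382 and 0.0307, limma). Cxcl1 turned to -0.09 with weights per library and ran from -0.23 to 0.63 without 1 library, and Cxcl3 ran from -0.11 to 0.54; neither was called anywhere. Over all genes, 117 higher and 141 lower with the inhibitor became 43 and 56 without a mean trend, 407 and 407 with weights per library, and 55 and 118 with ribosomal protein centring, which moved the higher share of calls from 45.3% to 31.8%. Without 1 library the counts ran from 27 to 140 higher and 35 to 177 lower. They were 27 and 35 without inhibitor replicate 3, 32 and 47 without replicate 1, 52 and 91 without replicate 2 and 75 and 85 without LPS replicate 3, while 90 were lower without LPS replicate 2. Without LPS replicate 1 and inhibitor replicate 3, an alternative chosen after seeing the data, they were 44 and 39. The causes were not tested. With the replicate number as a block 95 were higher and 113 lower, no member's call changed, and of the pathway genes named that were called, Ikbkb lost its call (adjusted p = 0.0654, limma). Same-numbered libraries had correlations of deviations from -0.297 to 0.165, and the best match carried the same number in 6 of 18 cases. These values show no strong shift shared by number, but cannot tell whether same-numbered libraries were paired, which the labels do not state. Ribosomal protein centring moved the median of all genes in LPS against untreated from -0.0572 to 0.0601. Cxcl9 had no value under the filter of 10 CPM, and a pseudocount was not needed on a log2 scale. Depth limits Cxcl9 throughout and untreated Cxcl1, Cxcl3 and Cxcl10.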
